A study of Setaria viridis with 13 samples.

Results

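Of the 4900 genes of green millet (Setaria viridis) in the deposited list of transcription start site offsets, 728 (14.9%) carry an offset of -51 nt or lower, and these genes are described here. They were chosen by that value alone. The list gives each gene an ID and 1 signed whole number of nt. What the offset is measured from and what its sign means are not given here by labels or file headers, so offsets are printed as deposited and no direction along the gene is read from them. All 728 genes have a row in the deposited expression table, which holds 35471 genes.

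The expression table covers 13 samples of 1 wild-type line, accession A10, grown in hydroponics with no other treatment named in the labels. The coleoptile was taken 3 days after germination. The V3 samples, at 10 days, were the vegetative meristem, the bulk shoot and 4 pieces of leaf 3, namely a lower section below the ligule of leaf 2, a mid section above it, the tip, and the base above the ligule of leaf 3 itself. At V5 (15 days) the bulk shoot, the bulk root and the inflorescence meristem were taken, and at stage R the bulk shoot (20 days), the pre-anthesis panicle (22 days) and the post-anthesis panicle (25 days). Each sample has 1 column of values that stands for 3 biological replicates, so there is no replicate spread and no test was made between samples. Differences between sets of genes are likewise given as counts and medians without a test. Levels are FPKM (fragments divided by transcript length and by the sample's total), or log2(FPKM + 1) where so named. The sequencing depth behind the values is unknown. The gene IDs carry no names in the files, so the tissue labels could not be checked against marker genes and genes are called by ID. In whole tissues, fewer cells of a type and less RNA per cell cannot be told apart.

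RNA polymerase II begins a transcript at the transcription start site, and the stretch from there to the start codon is the 5′ untranslated region. Core promoter elements, where a gene has them, lie at fixed distances around the start site. A start at another position can change the length of the 5′ untranslated region. Many plant genes begin at a cluster of neighbouring positions, and some use different start sites in different tissues. In plants, certain introns close to the start of transcription raise expression, the subject named as stimulating introns in the series title, which makes the position of the start important for that work.

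The 728 offsets formed a long thin tail next to the bulk of the list. The offset carried by the most genes in the list was -9 nt (177 genes), followed by -8 nt (172 genes), and the median of all 4900 was -7 nt. Among the 2992 genes with a negative offset the 728 made up 24.3%. Their median was -91 nt, with quartiles of -127 and -69.75 nt, and 10% lay at -169 nt or lower. The list ended at -200 nt on this side, reached by 1 gene, while it ran to 620 nt on the other. Counted in steps of 10 nt, 743 genes lay from -20 to -11 nt, 202 from -30 to -21 nt, 126 from -50 to -41 nt and 84 from -60 to -51 nt. The next step, -70 to -61 nt, held 109 genes, after which the numbers fell away to 65 from -100 to -91 nt and 22 from -200 to -191 nt.

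**Figure D1:**
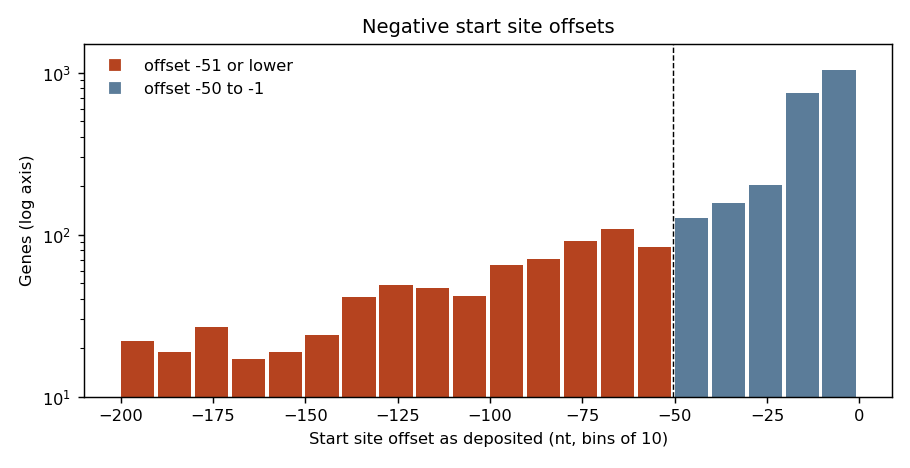
Number of genes (vertical log axis) per step of 10 nt of the deposited start site offset (horizontal axis) for all genes with a negative offset. The 728 genes at -51 nt or lower (red, left of the dashed line) range from 109 genes per step at -70 to -61 nt to 17 at -170 to -161 nt, and the step next to 0 holds 1036.

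Genes on either side of the threshold overlapped in level. At -51 nt there were 6 genes and at -50 nt 10. Just inside, Si002465m.g (-51 nt) ranged from FPKM 3.03 in the leaf base to 29.7 in the post-anthesis panicle, with a median over samples of 10.5. Si005109m.g (-51 nt) ranged from 1.93 in the post-anthesis panicle to 12.9 in the pre-anthesis panicle. Just outside, Si001335m.g (-50 nt) ranged from 3.79 in the leaf base to 13.9 in the inflorescence meristem. Si002320m.g (-50 nt) was at 19.4 in the lower and 15.9 in the mid section of leaf 3 and at 0.0570 in the inflorescence meristem. Both genes inside the threshold were at FPKM 1 or more in all 13 samples, and so was 1 of the 2 outside it.

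The 4 most negative offsets belonged to genes of very different levels. Si004722m.g (-200 nt) stayed under FPKM 1 throughout, with a highest value of 0.932 in the inflorescence meristem, and was listed at 0 in the root and the lower leaf section. Si020797m.g (-199 nt) also stayed under 1, between 0.189 in the leaf tip and 0.932 in the vegetative meristem. Si020331m.g (-199 nt) was at 4.43 in the mid leaf section, 3.79 in the leaf tip and 4.35 in the post-anthesis panicle, and under 0.5 in the coleoptile, the root and both meristems. Si026786m.g (-199 nt) was present everywhere, from 12.4 in the lower leaf section to 48.9 in the post-anthesis panicle.

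Genes with an offset of -51 nt or lower had lower levels than the rest of the list. Averaged over the 13 samples, their median log2(FPKM + 1) was 2.96 (quartiles 1.67 and 4.15) against 4.23 (2.96 and 5.59) in the other 4172 listed genes and 0.80 over all 35471 genes. Their median was thus far above that of genes in general but under that of the list they come from. Levels stepped through the offset classes. The median was 3.41 at -50 to -21 nt (485 genes), 3.98 at -20 to -1 nt (1779 genes), 5.25 at 0 nt (83 genes), 4.73 at 1 to 100 nt (1475 genes) and 4.38 above 100 nt (350 genes). Within the 728 the gradient was shallow, with medians of 3.29 at -75 to -51 nt, 2.74 at -100 to -76 nt, 2.73 from below -100 to -150 nt and 2.70 at -200 to -151 nt. Across the 728 genes Spearman's rho between offset and mean level was 0.10, and across all 2992 genes with a negative offset it was 0.29. These describe genes measured in the same 13 columns, which are not independent replicates.

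The lower level held in each of the 13 samples and was most marked in the root. In the root the median log2(FPKM + 1) was 2.17 for the 728 genes and 3.91 for the other listed genes, a difference of -1.75. The next gap was -1.52 in the post-anthesis panicle (3.06 against 4.57). In the other 11 samples the gap ran from -1.09 in the coleoptile (3.18 against 4.26) to -1.37 in the vegetative meristem (2.84 against 4.21). The 728 genes had their highest median in the R bulk shoot (3.52) and their lowest in the root, followed by the leaf tip (2.56) and the leaf base (2.59). For the other listed genes the R bulk shoot was also highest (4.81), and the leaf base was lowest (3.84), followed by the leaf tip (3.87) and the root (3.91).

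**Figure D2:**
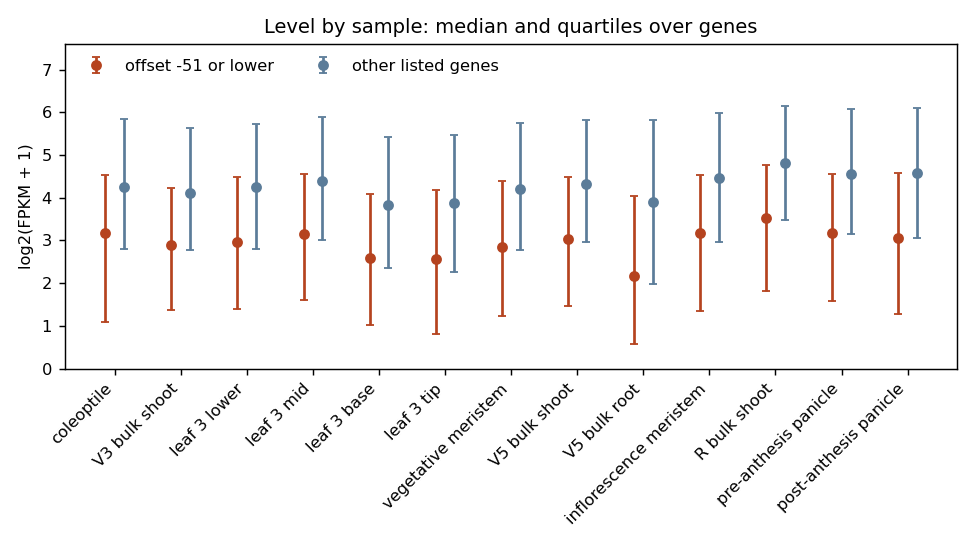
Median log2(FPKM + 1) in each of the 13 samples, with bars from the lower to the upper quartile over genes, for the 728 genes with an offset of -51 nt or lower (red) and the other 4172 listed genes (blue). The red median lies under the blue one in all 13 samples, and the gap is widest in the root (2.17 against 3.91).

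Expression was also narrower than in the rest of the list. An FPKM of at least 1 in all 13 samples was reached by 332 of the 728 genes (45.6%), by 70.9% of the other listed genes and by 27.6% of all genes. At the other end, 20 of the 728 (2.75%) stayed under FPKM 1 in every sample, against 9 of the other 4172 (0.216%), so 20 of the 29 such genes in the list had an offset of -51 nt or lower. Over all genes 37.3% stayed under FPKM 1 everywhere. Another 57 of the set (7.83%) reached FPKM 1 in 1 to 3 samples, against 1.77% of the other listed genes and 12.4% of all genes. The set was thus narrower than the rest of the list and broader than genes in general. The share present in all samples was 56.3% at -50 to -21 nt, 63.5% at -20 to -1 nt, 83.3% at 1 to 100 nt and 75.1% above 100 nt.

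The 20 genes under FPKM 1 everywhere still carried a listed start site. Si015661m.g (-109 nt) had a highest FPKM of 0.0210, in the vegetative meristem, and was listed at 0 in 10 samples. Si039998m.g (-131 nt) had 0.0497 in the post-anthesis panicle and was listed at 0 in 11. Both were singled out after their values were seen, as the lowest of the 20. The highest value of the other listed genes was never under 0.338, so the lowest levels of the whole list were among the 728. None of the listed genes was at 0 in every sample.

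**Figure D3:**
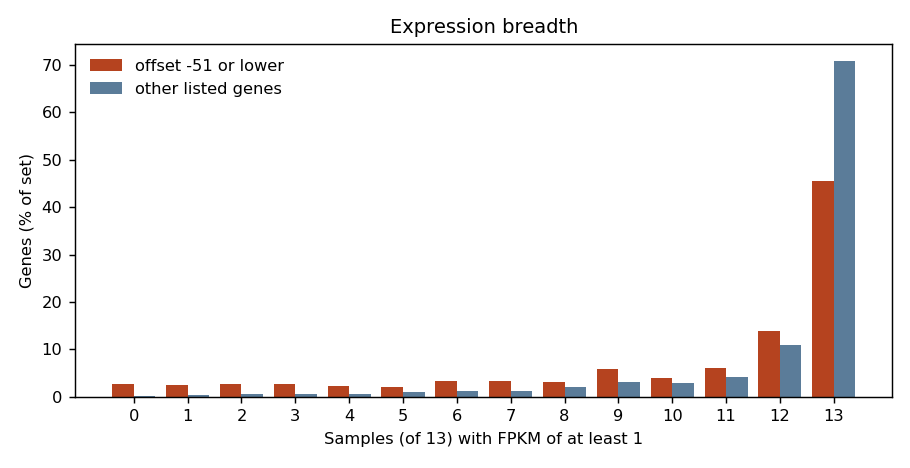
Share of genes (vertical axis, percent of each set) by the number of samples, from 0 to 13, in which the gene has an FPKM of at least 1. Genes with an offset of -51 nt or lower (red) are at 45.6% for all 13 samples against 70.9% of the other listed genes (blue), and exceed them at each smaller number of samples.

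Where a gene missed 1 sample, that sample was usually the root. Of the 101 genes with an offset of -51 nt or lower that reached FPKM 1 in 12 samples, 67 (66.3%) were under it in the root, 10 in the coleoptile, 8 in the leaf tip and 6 in the post-anthesis panicle. The root also came first in the other listed genes, missing for 280 of 454 (61.7%), followed there by the leaf tip for 70 and the coleoptile for 40. Of the 18 genes of the set that reached FPKM 1 in a single sample, 9 did so in the root, against 12 of 20 in the other listed genes.

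Breadth depends on level, and among genes of like level the difference in breadth varied in size and, in narrower level groups, in direction. The listed genes were divided into 4 equal groups by their mean log2(FPKM + 1). Genes with an offset of -51 nt or lower made up 27.7% of the lowest group, 16.1% of the next, 9.48% of the one after and 6.20% of the highest. In the second group, where the medians of the mean level were 3.39 and 3.43, 70.6% of the set and 71.4% of the other genes were present in all samples. One group higher these shares were 81.0% and 87.6%, and in the highest 86.8% and 94.6%. In the lowest group they were 9.73% and 18.5%, but there the set was also lower in level (1.5 against 1.94). In 10 equal groups, a division added after seeing the data, the set was the broader one in the fifth (89.0% against 82.8%) and the sixth (88.0% against 83.8%). In all the others it was the narrower one. From the first to the fourth the shares were 0% against 0.965%, 15.5% against 20.6%, 46.2% against 48.3% and 59.6% against 68.3%. The gap was widest in the eighth, with medians of the mean level of 5.43 in both. There 67.7% of the 31 genes of the set and 91.7% of the others were present in all samples. The shares were 83.3% and 89.8% in the seventh group, 80.6% and 93.2% in the ninth and 93.75% and 96.9% in the tenth.

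More than 1 transcript in the expression table was found for 74 of the 728 genes (10.2%), close to the 9.96% of all genes. The other listed genes stood above both at 25.0%. The share was 17.7% at -50 to -21 nt, 20.7% at -20 to -1 nt, 31.7% at 1 to 100 nt and 29.7% above 100 nt. It was lower in the set than in the other listed genes within each of the 4 level groups, at 2.06% against 10.4%, 17.3% against 22.1%, 19.8% against 28.7% and, in the highest, 13.2% against 35.5%.

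The 4 genes of the set with the highest mean FPKM were highest in leaf parts and low in the root or the meristems. Although the typical gene of the set was low, 53 of the 728 (7.28%) had a mean FPKM of at least 100 and 11 (1.51%) of at least 1000, against 17.2% and 1.70% of the other listed genes. Together the 728 genes held 29.2% of the summed FPKM of the listed genes in the leaf base, 25.7% in the leaf tip, 21.3% in the V3 bulk shoot and 20.5% in the lower leaf section. They held 10.2% in the root, 6.90% in the coleoptile, 5.91% in the vegetative meristem and 5.66% in the inflorescence meristem. A few genes carried these sums. The 4 genes of highest mean FPKM made up 74.3% of the set's sum in the leaf base, 70.9% in the leaf tip and 72.0% in the V3 bulk shoot, and another gene, Si019338m.g, made up 51.6% of it in the root. Without those 4 the set held 9.60% of the listed sum in the leaf base, 9.14% in the leaf tip, 7.05% in the V3 bulk shoot, 10.1% in the root and 4.94% in the inflorescence meristem. In each of the 3 bulk shoots and the 4 leaf parts, 4 of the 10 most abundant listed genes belonged to the set, and in the 2 meristems none did.

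Si020856m.g (-134 nt) had the highest mean FPKM of the set. It was at 48644 in the leaf base, 35363 in the V3 bulk shoot, 32093 in the leaf tip, 21920 in the V5 bulk shoot, 19619 in the lower and 14066 in the mid section of leaf 3, and 10225 in the R bulk shoot. It was at 9607 in the post-anthesis and 2977 in the pre-anthesis panicle, 5148 in the coleoptile, 1870 in the vegetative and 1640 in the inflorescence meristem, and 98.0 in the root. All bulk shoots and leaf parts thus lay above both panicles, the coleoptile, the meristems and the root.

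Si020848m.g (-60 nt) ran from 11910 in the R bulk shoot to 18305 in the leaf tip over the shoots and leaf parts, and was at 13.6 in the root. Si020831m.g (-161 nt) was at 20170 in the leaf tip, 1242 in the inflorescence meristem and 48.2 in the root. Si003882m.g (-58 nt) differed from these in its lowest sample. It was at 29327 in the leaf base, 494 in the root, 39.2 in the vegetative meristem and 74.6 in the inflorescence one, so both meristems lay under the root. No name or function is paired with these IDs, and whether reads are shared with near-identical copies is unknown.

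A root level far under that of the other samples was most frequent among the abundant genes of the set. For each gene the root was set against the median of the other 12 samples on the log2(FPKM + 1) scale. Over all 728 genes the median of this difference was -0.38, against -0.16 in the other listed genes, and a root at least 2 below was found in 152 (20.9%) of the set, 20.3% of the other listed genes and 5.57% of all genes. Of all genes 37.3% stayed under FPKM 1 in every sample, and for these a root 2 lower or higher was out of reach. The share over all genes is therefore not one of genes of like level. In the highest level group the median was -2.21 for the 76 genes of the set and -0.005 for the 1149 others. There the root lay at least 2 below in 39 of the 76 (51.3%) and in 24.1% of the others. In that group the share was 24.5% at -50 to -21 nt (49 genes), 25.6% at -20 to -1 nt, 21.7% at 1 to 100 nt and 31.9% above 100 nt. Outside it the neighbouring class at -50 to -21 nt had a low root about as often as the set or more often. In the group below, the share was 42.0% in that class, 31.0% in the set and 23.6% in the other listed genes. Over all levels that class had a median difference of -0.68 and a low root in 25.4%. In the lowest group the median levels were under 2, so a root lying 2 lower was out of reach for most genes, and only the median difference is given there, -0.105 for the set and 0.0925 for the others. A root at least 2 above the other samples was found in 67 genes of the set (9.20%), 10.2% of the other listed genes and 5.73% of all genes.

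In the highest level group the set was above the other listed genes in leaves and young shoots and under them in the root, both meristems, both panicles and the R bulk shoot. Its median log2(FPKM + 1) was 7.68 against 6.71 in the mid leaf section, 7.28 against 6.25 in the leaf base, 7.25 against 6.23 in the leaf tip and 7.46 against 6.51 in the lower section. It was 7.33 against 6.77 in the V3 and 7.33 against 6.84 in the V5 bulk shoot, and the same within 0.02 in the coleoptile. It was 6.24 against 7.04 in the inflorescence meristem and 4.89 against 6.60 in the root. The gap was smaller in the vegetative meristem (6.505 against 6.78), the panicles (6.74 and 6.78 against 7.05) and the R bulk shoot (6.85 against 7.06). The groups were formed on the mean of these same 13 samples, with medians of 6.76 and 6.61 here. At a like mean, a lower root goes with higher values elsewhere, so these differences are not independent. In the lowest level group the set was under the others in all 13 samples, from 0.75 against 1.25 in the leaf tip to 1.70 against 2.22 in the R bulk shoot.

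**Figure D4:**
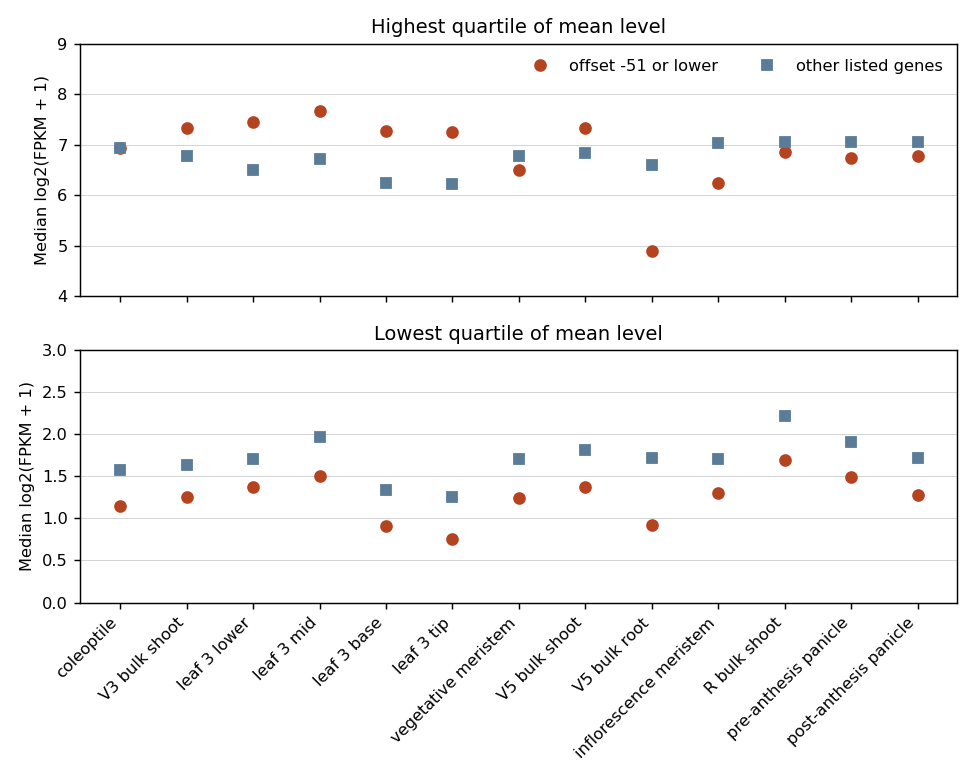
Median log2(FPKM + 1) per sample for genes with an offset of -51 nt or lower (red circles) and other listed genes (blue squares), in the highest (top, 76 and 1149 genes) and the lowest (bottom, 339 and 886 genes) quartile of mean level, on axes of different range. In the highest quartile the red points lie above the blue in the 4 leaf parts and the V3 and V5 bulk shoots and far under them in the root (4.89 against 6.60).

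Over the whole set, the sample of highest expression was more often a leaf part and less often the root than in the pooled rest of the list. By tissue label, 239 of the 728 genes (32.8%) were highest in 1 of the 4 leaf parts, against 27.1% of the other listed genes and 20.9% of all genes. In the root 106 (14.6%) were highest, against 19.4% of the other listed genes and 19.4% of all genes. The panicles were highest for 17.4% of the set, 19.6% of the other listed genes and 16.4% of all genes. The meristems had 19.1%, 20.6% and 24.0%, and the bulk shoots with the coleoptile 16.1%, 13.3% and 19.3%, in the same order. For panicles and shoots the set therefore lay on opposite sides of the other listed genes and of genes in general. Single samples did not all follow their tissue. The R bulk shoot was highest for 6.73% of the set and 4.82% of the other listed genes, the vegetative meristem for 5.63% and 4.82%, and the V5 bulk shoot for 1.65% and 2.18%. Nor were the shares even by offset class. Above 100 nt the leaf tip (10.9%, set 8.38%) and the mid section were highest more often than in the set. The lower section (8.29%, set 11.5%) was highest less often. At -100 to -76 nt the lower section (6.42%) and the tip (5.35%) were under the other listed genes (8.63% and 7.53%). The mid section and the base were above them. Tissues had unequal numbers of samples. With the samples of a tissue averaged first, the leaf had 28.2% against 22.6% and the root 19.9% against 25.0%. By offset class, the root was the highest single sample for 15.7% at -50 to -21 nt, close to the set. Within the set this share ran from 10.8% from below -100 to -150 nt to 19.2% at -200 to -151 nt. The share highest in the root was lower in the set than in the other listed genes in each of the 4 level groups, from 18.3% against 25.1% in the lowest to 11.8% against 18.5% in the highest. For 11 genes of the set 2 or more samples shared the highest value to the 2 decimals deposited, and the sample first in developmental order was taken.

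Genes expressed mainly in 1 sample were present as well, though some of them reached FPKM 1 in others. The tau index, which is 0 for a gene with equal values and 1 for a gene seen in a single sample, had a median of 0.35 in the 641 genes of the set at FPKM 5 or more in some sample and 0.28 in the 4068 other listed genes at that level. Among genes of like mean level, taken without the FPKM minimum, median tau differed little. It was 0.313 against 0.323 in the second level group, 0.237 against 0.243 in the third and 0.205 against 0.190 in the highest. In the lowest group, where the set was also lower in level, it was 0.601 against 0.557. A tau of at least 0.85 was reached by 34 of the 641 (5.30%), by 69 of the other listed genes (1.70%) and by 5.51% of all genes at that level. The set thus lay near the share of genes in general and above that of the rest of the list. The root was the highest sample for 15 of the 34, the post-anthesis panicle for 10, the coleoptile for 7 and the pre-anthesis panicle for 2. None was highest in a leaf part, a bulk shoot or a meristem. These tissues each have several samples, so a gene high throughout such a tissue has a lower tau. The absence therefore does not show that the set lacks genes confined to these tissues. By offset, the 34 were 14 of 169 genes at that level (8.28%) at -100 to -76 nt and 10 of 181 (5.52%) from below -100 to -150 nt. They were 9 of 209 (4.31%) at -75 to -51 nt and 1 of 82 (1.22%) at -200 to -151 nt. The neighbouring classes had 3.48% at -50 to -21 nt and 2.66% at -20 to -1 nt.

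In the root, Si023648m.g (-76 nt) was at FPKM 448 and no other sample exceeded 0.141. Si004833m.g (-79 nt) was at 656 there, with 6.41 in the vegetative meristem as the next value. In the post-anthesis panicle Si026461m.g (-92 nt) was at 376, with 1.16 before anthesis and at most 0.495 in the other 11 samples. Si003784m.g (-85 nt) was at 344 after and 9.85 before anthesis, and at most 0.357 elsewhere. These 4 genes had 1 sample apart from all others.

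In the coleoptile Si016692m.g (-68 nt) was at 652, with 6.21 in the root and 6.01 in the vegetative meristem next. Si013424m.g (-67 nt) was at 90.8 in the coleoptile and under FPKM 1 in the other 12 samples. In the pre-anthesis panicle Si013605m.g (-69 nt) was at 19.7 and Si033185m.g (-85 nt) at 9.06, with 4.66 and 0.840 in the post-anthesis panicle.

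A steady level across tissues was rare in the set, as in the rest of the list. Of the 365 genes of the set with a mean FPKM of at least 10, 2 (0.548%) had a coefficient of variation (SD over mean across the 13 samples) under 0.2, against 6 of 3108 (0.193%). Si013463m.g (-80 nt) had the lowest, 0.195, with FPKM from 16.8 in the leaf base to 36.0 in the R bulk shoot. Si001203m.g (-71 nt) followed at 0.197, from 9.56 in the V3 bulk shoot to 18.7 in the mid leaf section. Si017470m.g (-91 nt) came next at 0.235, from 15.8 in the leaf base to 33.5 in the R bulk shoot.

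**Figure D5:**
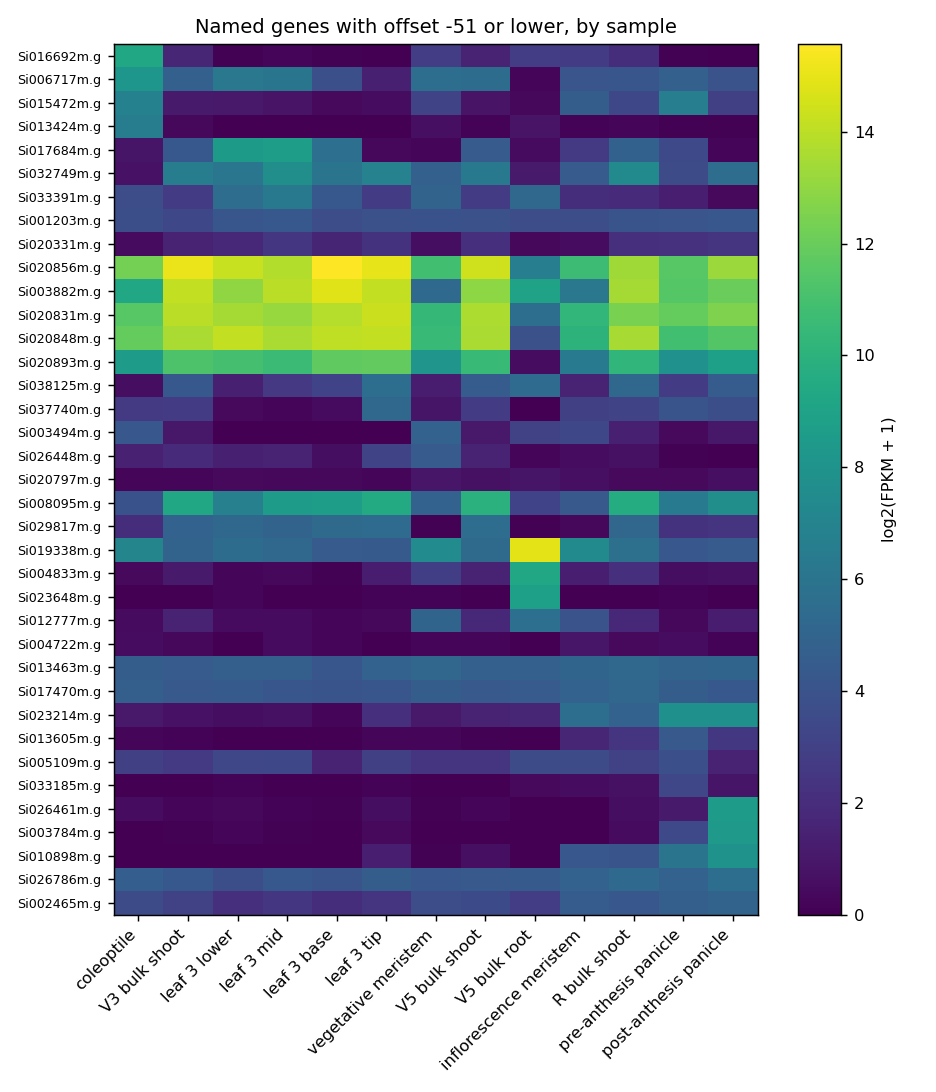
log2(FPKM + 1), by color, of the genes with an offset of -51 nt or lower that are named by rule (rows, ordered by the sample of the highest value) in the 13 samples (columns). Si020856m.g, Si003882m.g, Si020831m.g and Si020848m.g form a bright block over shoots and leaves with a low root or vegetative meristem, and single bright cells mark genes of the root, the coleoptile and the post-anthesis panicle.

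Pairs of samples were compared by a size rule. The genes tested had an FPKM of 5 or more in either sample, and a tested gene was called when its log2(FPKM + 1) values lay 2 or more apart. A gene that passes this minimum through 1 high sample is likely to be called, so the shares describe the genes tested and not all 728.

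Between the V5 root and bulk shoot, 77 of the 497 tested genes of the set (15.5%) were higher in the root, against a background of 16.7% over all genes tested and 14.1% of the other listed genes. Lower in the root were 153 (30.8%), against a background of 17.5% and 23.5% of the other listed genes. In the highest level group 40 of 76 were lower, against 25.8% of the others. The neighbouring class at -50 to -21 nt was like the set, with 31.8% of its tested genes lower and 9.09% higher in the root. Within the set the share lower ran from 21.9% at -100 to -76 nt, where 22.7% were higher, to 40.3% at -200 to -151 nt. On the log2(FPKM + 1) scale the 153 genes had medians of 0.78 in the root and between 3.48 in the vegetative meristem and 5.22 in the lower leaf section in the other 12 samples. Si020893m.g (-139 nt) had an FPKM of 0.434 in the root against 1530 in the shoot, with 3590 in the leaf tip, and Si020848m.g had 13.6 against 12502. In the other direction Si019338m.g (-151 nt) reached 31432 in the root against 40.6 in the shoot, and was the most abundant gene of the set there. Its next value was 181, in the vegetative meristem. Si023648m.g was at 448 in the root and was listed at 0 in the shoot.

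Within leaf 3, 21 of 461 tested genes (4.56%) were higher in the tip relative to the lower section (background 2.92%, other listed genes 3.37%) and 64 (13.9%) were lower (background 10.4%, other listed genes 12.4%). Of the 21 higher genes 12 were in the lowest level group (12.4% of the set against 7.59% of the other listed genes). The set was also above in the next group (4.62% against 3.56%). It was under the others above that (0% against 3.29% and, in the highest, 1.32% against 2.18%). Si037740m.g (-83 nt) was at 36.3 in the tip and between 0.214 and 0.366 in the other 3 leaf parts. Si038125m.g (-171 nt) was at 47.5 in the tip and 1.57 in the lower section, with 41.8 in the root. Si017684m.g (-80 nt) had 0.257 in the tip against 359 in the lower and 415 in the mid section, and Si006717m.g (-68 nt) was at 1.53 in the tip and 75.1 in the lower section, with 287 in the coleoptile. Medians of the 64 genes were 4.39 in the lower and 4.04 in the mid section, 2.74 in the base and 1.33 in the tip on the log2(FPKM + 1) scale.

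Between the vegetative meristem and the V3 bulk shoot, 22 of 473 tested genes (4.65%) were higher in the meristem (background 2.95%, other listed genes 3.99%) and 68 (14.4%) were lower (background 6.34%, other listed genes 11.3%). Of the 22 higher genes 15 were in the lowest level group (17.05% of the set against 16.1% of the other listed genes). The set was under the others in the next groups (1.55% against 4.86%, then 0.862% against 2.08%). It was above them in the highest (3.95% against 2.09%). Si003494m.g (-122 nt) had 29.1 in the meristem against 0.973 in the shoot. It was listed at 0 in the mid section, base and tip of leaf 3. Si012777m.g (-92 nt) was at 30.8 and 1.87, with 50.3 in the root. Si003882m.g, described above, was at 39.2 and 18305. Si029817m.g (-131 nt) was at 0.0570 and 28.9, and likewise under FPKM 1 in the root and the inflorescence meristem. The median difference over all genes tested in this pair was 0.67, and when each sample was rescaled to the median ratio of genes present in all samples the counts were 14 higher and 95 lower.

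Between the inflorescence and vegetative meristems, 13 of 470 tested genes (2.77%) were higher in the inflorescence meristem (background 0.933%, other listed genes 1.40%) and 5 (1.06%) were lower (background 1.29%, other listed genes 2.06%). The higher share of the set rested on the scaling. After median-ratio rescaling 4 of 420 tested genes (0.952%) were higher, under the 1.17% of the other listed genes, and 4 were lower. After scaling to equal sums 8 of 455 (1.76%, other listed genes 1.28%) were higher and 5 lower. Si023214m.g (-104 nt) was at 48.2 in the inflorescence and 1.09 in the vegetative meristem, with 228 in the pre-anthesis and 227 in the post-anthesis panicle. Si010898m.g (-130 nt) was at 17.8 and 0.0570, with 61.7 and 248 in the panicles. Si026448m.g (-67 nt) had 0.434 in the inflorescence against 21.0 in the vegetative meristem, and Si033391m.g (-143 nt) was at 3.14 and 29.7.

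Between the panicles, 13 of 476 tested genes (2.73%) were higher after anthesis (background 2.0%, other listed genes 1.34%) and 21 (4.41%) were lower (background 2.08%, other listed genes 3.10%). Medians of log2(FPKM + 1) for the 13 higher genes were 5.80 after and 2.26 before anthesis, and at most 0.58 in the other 11 samples. They included Si026461m.g and Si003784m.g. Of the 13 higher genes 11 were in the lowest level group, where the shares were 10% of the set and 7.78% of the other listed genes. In the next group these shares were 0.575% and 0.857%. They were 0.862% and 0.820% above that, and 0% and 0.348% in the highest. Among the lower genes, Si015472m.g (-78 nt) was at 98.7 before and 6.78 after anthesis, with 112 in the coleoptile, and Si017684m.g was at 9.70 and 0.157.

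Between the coleoptile and the V3 bulk shoot, 28 of 473 tested genes (5.92%) were higher in the coleoptile (background 2.23%, other listed genes 2.98%) and 35 (7.40%) were lower (background 4.64%, other listed genes 7.11%). Of the 28 higher genes 19 were in the lowest level group, where the shares were 21.1% of the set and 17.3% of the other listed genes. In the next group the set was under the others (1.57% against 2.73%). It was above them in the upper groups, at 2.59% against 1.45% and, in the highest, 3.95% against 1.22%, with 3 genes of the set in each. Si016692m.g had 652 in the coleoptile against 2.20 in the shoot, and Si013424m.g was at 90.8 and 0.266. Si032749m.g (-79 nt) had 0.717 in the coleoptile against 90.8 in the shoot, with 203 in the mid leaf section. Si008095m.g (-52 nt) was at 13.9 and 652, with 1002 in the V5 bulk shoot and 7.69 in the root. The V3 bulk shoot and the vegetative meristem each serve in 2 of the 6 pairs, so those counts share a sample.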

How the data were processed

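Polyadenylated RNA of 13 samples was sequenced, per the labels, as paired-end Illumina reads from cDNA made with a SMARTer kit. STAR and DESeq2 are named in the submitters' processing notes, without version or purpose. How replicates were merged and offsets made, the annotation and the build are not given in the sources used. The deposited values are log2 values per transcript from 0 to 16.6, read here as log2(FPKM + 1). The base and the added 1 are inferred, since back-transformed columns sum to 884742 to 1110012. The deposited offset score is a signed whole number of nt per gene.

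Each gene was represented by its transcript of highest mean FPKM (40599 transcripts, 35471 genes). None of the listed IDs matched the 34587 genes of the RefSeq table (Setaria_viridis_v4.0), so no names, sequences or gene lists were used. Breadth counted samples at FPKM 1 or more, and tau used log2(FPKM + 1) and genes at FPKM 5 in some sample. Differences of low genes are understated by the pseudocount of 1. FPKM depends on the length assigned to a transcript and on the few most abundant genes of a sample. Named genes are the 4 most negative offsets, 2 genes on each side of the threshold, the 4 highest mean FPKM, at most 2 per direction and pair by log2 difference, at most 2 per sample among genes with tau of 0.85 or more, and the 3 lowest coefficients of variation at a mean FPKM of 10 or more. Members and comparisons were chosen with earlier results of these data known. The calculations were tested on simulated data and used Python 3.11.15, pandas 2.3.3, numpy 2.4.6, scipy 1.17.1 and matplotlib 3.10.9. Alternatives were the summed transcripts, 2 rescalings, other offset thresholds, FPKM minimums, pseudocount, tau scale and log2 difference.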

Additional observations from a re-analysis of the deposited data

How the results depend on the processing

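No paired analysis was possible because each sample has 1 column of merged replicates, which also leaves no replicate to leave out. Of 160 recomputed summary values 10 changed the order of the set and the other listed genes and 28 moved in size. The other 122 stayed within the 95% Wilson interval of the reported share, or within 0.1 of a median log2 difference and 0.05 of one in tau. That interval is wide for small counts, and 6 of the 122 moved by over 1.5 times. These were the tau difference, from 0.070 to 0.044 (pseudocount of 0.1) and 0.035 (linear FPKM), and, in the inflorescence meristem, the higher share, to 1.76% (equal sums) and 4.26% (pseudocount of 0.1), and the lower share, to 1.79% (-31 or lower) and 1.70% (pseudocount of 0.1). The lower level moved from -1.27 to -1.46 with transcripts summed, -1.38 at an offset under -100 and -1.46 with a pseudocount of 0.1. The share present in all samples was 54.4% at FPKM 0.5 (others 77.3%) and 21.3% at FPKM 5 (others 45.3%). The root difference of the set minus the others, -0.22, was -0.05 at an offset under -100, -0.37 at -31 or lower and -0.48 with a pseudocount of 0.1. The share highest in the root was 17.4% after median-ratio scaling (others 24.1%). The share with tau of at least 0.85 was 2.81% with a pseudocount of 0.1, 17.9% on linear FPKM and 3.05% without the root. 

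The order of the set and the other listed genes changed as follows. For genes higher in the root than in the V5 shoot, the set was at 13.3% against 14.3% (offset under -100), 13.1% against 14.6% (-31 or lower), 12.2% against 12.9% (FPKM minimum of 1) and 25.8% against 30.5% (log2 difference of 1). It also changed for genes higher in the leaf tip (10.4% against 11.9%, log2 difference of 1), higher in the vegetative meristem (3.80% at an offset under -100, 3.49% against 3.57% at FPKM 1) and lower in the coleoptile (5.94% against 6.44%, FPKM 1). In the inflorescence meristem the higher share turned from 2.77% against 1.40% to 0.952% against 1.17% (median-ratio scaling), and the lower share from 1.06% against 2.06% to 8.94% against 7.56% (log2 difference of 1). The cause was not tested.

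Other shares moved without a change of order. They are given with the other listed genes in parentheses. At a log2 difference of 1 they were 42.7% (34.1%) lower in the root, 29.3% (26.3%) lower in the leaf tip, 23.3% (23.0%) higher and 25.4% (19.2%) lower in the vegetative meristem, 15.1% (14.02%) higher in the inflorescence meristem, 7.77% (5.44%) higher and 9.87% (8.31%) lower after anthesis, and 18.0% (15.7%) higher and 16.3% (13.9%) lower in the coleoptile. With an FPKM minimum of 1 they were 26.4% (22.2%) lower in the root and 11.1% (10.1%) lower in the vegetative meristem. With a pseudocount of 0.1 they were 17.8% (14.1%) lower in the leaf tip and 7.82% (4.96%) higher in the vegetative meristem. Median-ratio scaling gave 3.00% (1.96%) higher and 20.4% (15.1%) lower in the vegetative meristem, and equal sums 11.7% (10.7%) higher in the root. Median-ratio scaling shifted the pairs by 0.17 (root), 0.24 (leaf tip), -0.57 (vegetative meristem), -0.06 (inflorescence meristem), -0.04 (panicles) and -0.12 (coleoptile) on the log2 scale. Equal sums shifted the root by -0.33. The share with a low root in the highest level group, with alternatives chosen after seeing the data, stayed between 45.6% and 56.7% under 7 settings.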
